A study of Homo sapiens with 6 samples.

Results

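The genes described here are 35 targets of p53, picked by name from a table of 58735 genes measured by RNA sequencing. All 35 names were found, each once, and 29 of them were high enough to be tested. The libraries are labelled BxPC-3, an established human line from a pancreatic adenocarcinoma, cultured in RPMI-1640 with serum. In the 3 control libraries the cells received DMSO, the solvent, and in the other 3 they received GSK3326595, a small molecule that inhibits PRMT5. The sources used here give neither dose nor duration of the treatment. PRMT5 is an enzyme that places symmetric dimethyl marks on arginines of histones, splicing factors and other proteins. The study title concerns the Hippo kinase MST2 as a PRMT5 substrate, and the design text speaks of a knockdown where the library labels name the inhibitor; the labels were followed. The labels do not say whether each library is a culture of its own, so p-values here reflect only how these libraries vary, which may be technical variation. In bulk RNA, fewer cells of a kind and less RNA per cell cannot be told apart.

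p53 is a transcription factor that is held at low levels by MDM2 and MDM4 and is stabilised by DNA damage and other stress. Its targets include genes that repair DNA, halt the cell cycle, adjust metabolism or start cell death, and genes such as MDM2 and PPM1D that switch p53 off again. Many of them also answer to other stress and growth factor pathways. BxPC-3 is known as a line with loss of CDKN2A. Gene-level values do not show which exons were joined, so the MDM4 exon skipping for which PRMT5 loss is known cannot be read from them.

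p53 binds a pair of 10-base motifs, each made of 3 purines, a C, 2 bases that are A or T, a G and 3 pyrimidines. The motif reads the same on both strands. RefSeq start-site windows (GRCh38.p14, 250 bases before to 50 after each listed start) were found for 29 of the 35 members, 41 windows in all. An exact motif was in a window of 5 members: DDB2 and FDXR, which rose with the inhibitor, PLK2 and AEN, which fell, and SESN1, which was not called. These were 5 of the 41 member windows, 12.2%, where 6.63% of all 35116 windows held one. With 1 mismatch allowed, a motif was in 46.3% of member windows and 45.1% of all windows. A pair of motifs with at most 1 mismatch each and a gap of at most 13 bases was in 3 windows of DDB2 and MDM2, 7.32% of member windows, against 1.84% of all windows. The MDM2 windows that hold it start at 68808767 and 68808774 and overlap, so the same MDM2 pair is counted in each. The stretches that hold these motifs are shown because they hold p53's own motif in members that rose (DDB2, FDXR), fell (PLK2, AEN) or were not called (SESN1, MDM2). Each is 100 bases, 5′ to 3′ on the gene's strand. Capitals mark exact motifs and motifs in a pair, and other motifs with 1 mismatch stay in lower case. The stretches lie at chr11:47214900-47214999 (plus strand, DDB2), chr17:74872969-74873068 (minus, FDXR), chr6:109008983-109009082 (minus, SESN1), chr12:68808883-68808982 (plus, MDM2), chr5:58460164-58460263 (minus, PLK2) and chr15:88621261-88621360 (plus, AEN).
DDB2: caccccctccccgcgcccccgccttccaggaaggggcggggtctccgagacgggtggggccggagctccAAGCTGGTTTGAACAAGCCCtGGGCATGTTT
FDXR: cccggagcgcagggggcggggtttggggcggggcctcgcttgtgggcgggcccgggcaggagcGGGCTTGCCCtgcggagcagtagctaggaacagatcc
SESN1: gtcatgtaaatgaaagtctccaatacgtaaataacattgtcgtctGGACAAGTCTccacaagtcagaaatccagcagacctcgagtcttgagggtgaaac
MDM2: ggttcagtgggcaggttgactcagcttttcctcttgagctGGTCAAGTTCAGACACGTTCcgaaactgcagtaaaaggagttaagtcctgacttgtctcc
PLK2: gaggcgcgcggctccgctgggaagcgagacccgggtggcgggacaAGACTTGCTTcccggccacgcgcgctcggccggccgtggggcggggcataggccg
AEN: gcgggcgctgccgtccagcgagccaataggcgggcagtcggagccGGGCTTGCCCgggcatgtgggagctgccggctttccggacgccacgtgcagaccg
The DDB2 stretch carries 3 motifs in a row, 2 of them exact, across a listed start site at 47214974. The MDM2 stretch carries 2 abutting motifs with 1 mismatch each, upstream of the RefSeq starts at 68809017 and 68809024 and inside the span that the deposited table lists for the gene. Further along it, outside the pair and in lower case, lies another motif with 1 mismatch, TGACTTGTCT. In the PLK2 stretch a motif with 1 mismatch, GGACAAGACT, overlaps the exact motif and is not marked as a motif of its own. The windows of XPC, POLH, PLK3, GDF15 and DRAM1, the other called members with a window, held no exact motif and no pair; GADD45A and CMBL had no window in the table. A match is a description of letters, not a measured binding site, and p53 sites outside these windows were not searched.

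PRMT5, the target of the drug, had 23.2, 24.6 and 26.2 FPKM (fragments per kilobase of a gene, scaled for the depth of each library) under DMSO, against 13.4, 12.8 and 12.1 FPKM under the inhibitor (log2 fold change −0.90, limma adjusted p = 0.00493). An inhibitor acts on the protein, so the PRMT5 transcript does not check the labels. These values cannot tell the inhibitor of the labels from the knockdown that the design text names, and which was used was not tested. The libraries held 14087260 to 15724750 reads each. Inhibitor replicate 2 stood apart: its log2 values correlated with those of the other inhibitor libraries at r = 0.906 and 0.904 across 13578 genes, which are not independent replicates, where the others correlated with each other at 0.980. It had 11.3% mitochondrial reads against 4.703% to 6.03% elsewhere, and the counts and the members it affects most are also given without it. Of 12 markers of pancreatic ductal epithelium, KRT19, CEACAM6, PDX1 and ESRP1 were at 0 in every library and EPCAM and CDH1 at 0.0884 to 0.496 FPKM, whereas KRT7, KRT8 and KRT18 carried most of the summed level of 676 to 756 FPKM in DMSO and 791 to 1043 FPKM with the inhibitor. Within that list KRT7 was called lower (163 to 103 FPKM, limma adjusted p = 0.0151) and MUC1 higher (21.9 to 48.3 FPKM, limma adjusted p = 0.00320). KRT8, KRT18 and SOX9 (3.67 to 2.27 FPKM) were not called. Without inhibitor replicate 2, KRT8 and KRT18 were called higher (limma adjusted p = 0.0184 and 0.00731) and SOX9 lower (0.0389). CDKN2A, which BxPC-3 is known to lack, stood at 95.6 to 118 FPKM in DMSO. The markers at 0 and the CDKN2A level go against the BxPC-3 label, so every result here is of libraries labelled BxPC-3. The 7 fibroblast markers summed to 5.09 to 5.68 FPKM in DMSO and 10.3 to 15.5 FPKM with the inhibitor, with COL1A2, LUM and PDGFRA at 0. Among these markers PDGFRB was called higher (1.03 to 4.65 FPKM, limma adjusted p = 0.00267). COL1A1 went from 4.33 to 8.18 FPKM and was not called (limma adjusted p = 0.0618), but it was called without inhibitor replicate 2 (0.000992). The 6 immune markers summed to 0.539 to 1.05 and 0.866 to 1.42 FPKM, with CD3E and LYZ at 0. The 4 endothelial markers summed to 1.09 to 1.46 and 0.227 to 0.823 FPKM, with KDR at 0. CDH5, which carried most of that sum, was called lower (1.24 to 0.339 FPKM, limma adjusted p = 0.0320). The part of these differences in the results was not tested.

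The members did not move as a block. DDB2, XPC, POLH, FDXR and CMBL rose with the inhibitor, and GDF15, GADD45A, PLK2, PLK3, AEN and DRAM1 fell. By role, 3 DNA repair members were higher, 1 was lower and 1 was not called, the feedback members gave no call, and 2 growth-arrest members were lower. Of the stress and metabolic members 2 were higher, 2 lower and 3 not called, and 1 cell death member was lower. So 5 of the 29 members tested were higher and 6 were lower (limma on log2(FPKM + 1), adjusted p under 0.05), and 18 were not called. That is 37.9% of the members, where 17.2% of all 13578 genes tested were called, 7.18% higher and 10.0% lower. The median log2 fold change was 0.18 for the members and −0.055 for all genes tested, or 0.10 and −0.051 without inhibitor replicate 2. Without inhibitor replicate 2, 9 members were higher and 7 lower, 55.2% of them, where 40.6% of all genes were called (17.5% higher, 23.1% lower). Each call of the 11 had the same direction without each library in turn, but only DDB2, XPC and GDF15 passed the threshold in all 6 of those fits. Limma-voom on the recovered reads also called 5 members higher and 6 lower (18.8% of all genes, 8.01% higher and 10.8% lower), and without inhibitor replicate 2 it called 13 higher and 7 lower (48.7% of all genes, 21.6% higher and 27.2% lower). DMSO and inhibitor values did not overlap for 12 members that lay higher with the inhibitor and 7 that lay lower; of all genes tested, 19.2% and 26.7% did so, 45.9% in either direction.

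**Figure D1:**
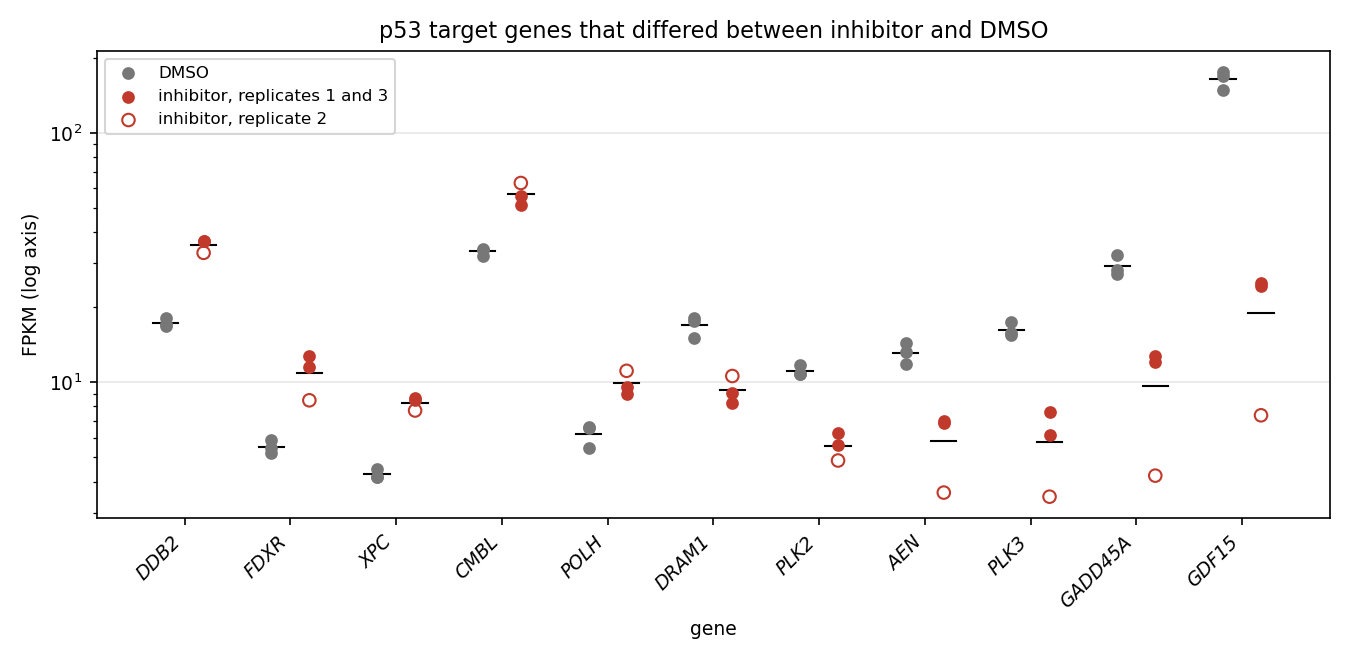
FPKM (log axis) of the 11 members that differed, each point a library, grey for DMSO and red for the inhibitor, with inhibitor replicate 2 as an open circle and a black line at each group mean. The 5 genes on the left lie higher in all 3 inhibitor libraries and the 6 on the right lie lower, with GDF15 the most changed, 8.70-fold lower on average.

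In the plot of FPKM for the 11 called members, no DMSO library reached into the range of the inhibitor libraries. These members were called on the same values, so this adds nothing to the calls, and 45.9% of all genes tested had no overlap. Inhibitor replicate 2 was the lowest inhibitor library for GDF15, GADD45A, PLK3, AEN, PLK2, FDXR, DDB2 and XPC and the highest for CMBL, POLH and DRAM1.

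Of the 5 DNA repair members, all tested, DDB2, XPC and POLH rose and GADD45A fell. The calls were 80.0% of the 5 members, where 17.2% of all genes were called, and 100% against 40.6% without inhibitor replicate 2. DDB2 (ENSG00000134574, chromosome 11, 47214465 to 47239240, hg38) encodes the damage sensor that finds ultraviolet lesions in chromatin. It measured 17.2, 16.8 and 18.1 FPKM across the DMSO libraries and 36.9, 33.0 and 36.9 FPKM across the inhibitor libraries. All 3 inhibitor libraries lay far above DMSO, and their mean was 2.05 times the DMSO mean, a log2 fold change of 0.99 (SE 0.11, limma adjusted p = 0.00381). XPC (ENSG00000154767, chromosome 3, 14145147 to 14178783), which recognises distorted DNA in the same pathway, gave 4.18, 4.16 and 4.48 FPKM under DMSO, against 8.66, 7.71 and 8.49 FPKM under the inhibitor. All 3 inhibitor values lay well above the DMSO values, and the log2 fold change was 0.82 (SE 0.10, limma adjusted p = 0.00593).

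POLH (ENSG00000170734, chromosome 6, 43576150 to 43615660) encodes DNA polymerase eta, which copies past ultraviolet lesions. Its values were 6.57, 6.64 and 5.44 FPKM under DMSO, against 8.996, 11.1 and 9.56 FPKM under the inhibitor. The groups did not overlap (log2 fold change 0.59, SE 0.13, limma adjusted p = 0.0276), but when 1 library at a time was removed the call was kept only without inhibitor replicate 2 (adjusted p = 0.0101). Without DMSO replicates 1, 2 and 3 its adjusted p was 0.102, 0.0937 and 0.105, and without inhibitor replicates 1 and 3 it was 0.0597 and 0.0658 (limma). RRM2B, the p53-inducible small subunit of ribonucleotide reductase, supplies nucleotides for repair. It had DMSO values of 3.96, 4.17 and 3.68 FPKM and inhibitor values of 5.74, 9.35 and 5.01 FPKM. Inhibitor replicate 2 was far above the others, and RRM2B was not called with it (log2 fold change 0.60, adjusted p = 0.0990) but was called without it (0.37, adjusted p = 0.0228, limma).

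GADD45A (ENSG00000116717, chromosome 1, 67685061 to 67688338), a small protein that binds PCNA and links damage to arrest and repair, went the other way. It was measured at 28.1, 27.2 and 32.4 FPKM in the control libraries and at 12.1, 4.22 and 12.8 FPKM in the treated ones. Replicate 2 was far below the other inhibitor libraries, which were themselves well below DMSO. The log2 fold change was −1.62 (SE 0.37, limma adjusted p = 0.0316) and −1.17 without inhibitor replicate 2 (adjusted p = 0.000667). Without DMSO replicates 1, 2 and 3 and inhibitor replicate 1 the adjusted p was 0.108, 0.102, 0.118 and 0.0529 (limma). The part of pathways other than p53 in the GADD45A values was not tested.

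Some repair genes share their locus with other transcripts, and whether reads were assigned by strand is not given. An antisense gene that overlaps DDB2, AC018410.2, went from 4.26 to 6.94 FPKM (log2 fold change 0.59, limma adjusted p = 0.0257). The neighbours that overlap XPC (LSM3) and POLH (GTPBP2 and POLH-AS1) had log2 fold changes of −0.29, −0.04 and 0.09 and were not called.

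The feedback genes, which restrain p53, gave no call with all libraries. Of 5 tested, 0 were called by limma and 0 by limma-voom on the recovered reads, and 1 had an unadjusted p under 0.05. Of all genes tested, 17.2% and 18.8% were called, so 0 of 5 says little about the group. Without inhibitor replicate 2, limma called 1 of them higher and limma-voom 2, where 40.6% and 48.7% of all genes were called. MDM2 (ENSG00000135679, chromosome 12, 68808176 to 68850686), the ubiquitin ligase that degrades p53 and the best-known p53 target, measured 4.57, 5.295 and 4.27 FPKM across the DMSO libraries and 4.99, 8.36 and 4.07 FPKM across the inhibitor libraries. Replicates 1 and 3 lay within or near the DMSO range and replicate 2 above it, so that the log2 fold change was 0.21 (SE 0.24, limma adjusted p = 0.566) with all libraries and −0.05 without replicate 2. CPM, which overlaps MDM2 on the opposite strand, went from 2.55 to 9.40 FPKM (log2 fold change 1.54, limma adjusted p = 0.00388).

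MDM4, the relative of MDM2 that blocks p53's activation domain, gave 5.30, 5.17 and 4.58 FPKM under DMSO, against 5.75, 10.4 and 5.02 FPKM under the inhibitor. Replicate 2 was far above the DMSO values, replicate 1 just above and replicate 3 among them (log2 fold change 0.37, SE 0.25, limma adjusted p = 0.333; 0.09 without replicate 2). PPM1D, the WIP1 phosphatase that removes activating phosphates from p53 and its kinases, had DMSO values of 8.31, 7.58 and 7.62 FPKM and inhibitor values of 6.76, 8.38 and 7.37 FPKM. The groups overlapped (log2 fold change −0.06, SE 0.12, limma adjusted p = 0.749). CCNG1, cyclin G1, which brings a phosphatase to MDM2, was measured at 34.1, 35.9 and 29.6 FPKM in the control libraries and at 52.4, 105 and 47.5 FPKM in the treated ones. It was higher in all 3 inhibitor libraries but not called (log2 fold change 0.93, SE 0.30, limma adjusted p = 0.0807), and it was called without inhibitor replicate 2 (0.58, adjusted p = 0.00661). FBXO22, a ubiquitin ligase subunit, was 1.23 times the DMSO mean and not called with or without that library (limma adjusted p = 0.164 and 0.0692).

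Among growth-arrest members both polo-like kinases fell, and BTG1, BTG2 and cyclin G2 were not called. The calls were 40.0% of the 5 members, where 17.2% of all genes were called, and 60.0% against 40.6% without inhibitor replicate 2. PLK2 (ENSG00000145632, chromosome 5, 58453982 to 58460260), a kinase induced by stress, measured 10.8, 11.7 and 10.8 FPKM across the DMSO libraries and 6.28, 4.86 and 5.59 FPKM across the inhibitor libraries. All inhibitor values lay below DMSO, 1.99-fold lower on average (log2 fold change −0.89, SE 0.12, limma adjusted p = 0.00731). PLK3 (ENSG00000173846, chromosome 1, 44800225 to 44805990), a kinase of the damage and stress response, gave 15.8, 15.4 and 17.4 FPKM under DMSO, against 6.17, 3.48 and 7.615 FPKM under the inhibitor. The groups were far apart (log2 fold change −1.40, SE 0.24, limma adjusted p = 0.0148; −1.13 without inhibitor replicate 2). PLK2 lost its call without DMSO replicate 2 (adjusted p = 0.0513), and PLK3 without DMSO replicates 1, 2 and 3 (adjusted p = 0.0680, 0.0658 and 0.0710, limma).

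BTG2, an antiproliferative factor that promotes deadenylation of mRNA, had DMSO values of 6.91, 5.945 and 5.63 FPKM and inhibitor values of 11.4, 7.02 and 10.5 FPKM. Replicate 2 was the lowest inhibitor library, just above the DMSO values. BTG2 was not called with it (log2 fold change 0.55, limma adjusted p = 0.0917) but was called without it (0.74, adjusted p = 0.00294) and with the length trend removed (0.70, adjusted p = 0.0121). BTG1, its relative, was measured at 14.6, 14.7 and 12.97 FPKM in the control libraries and at 14.0, 14.9 and 12.0 FPKM in the treated ones, an overlap of nearly the whole range (log2 fold change −0.05, SE 0.12, limma adjusted p = 0.808). CCNG2, the second G-type cyclin, which is also a FOXO target, measured 4.93, 4.17 and 4.49 FPKM across the DMSO libraries and 5.40, 4.05 and 4.90 FPKM across the inhibitor libraries. Its groups overlapped as well (log2 fold change 0.06, SE 0.13, limma adjusted p = 0.775).

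**Figure D2:**
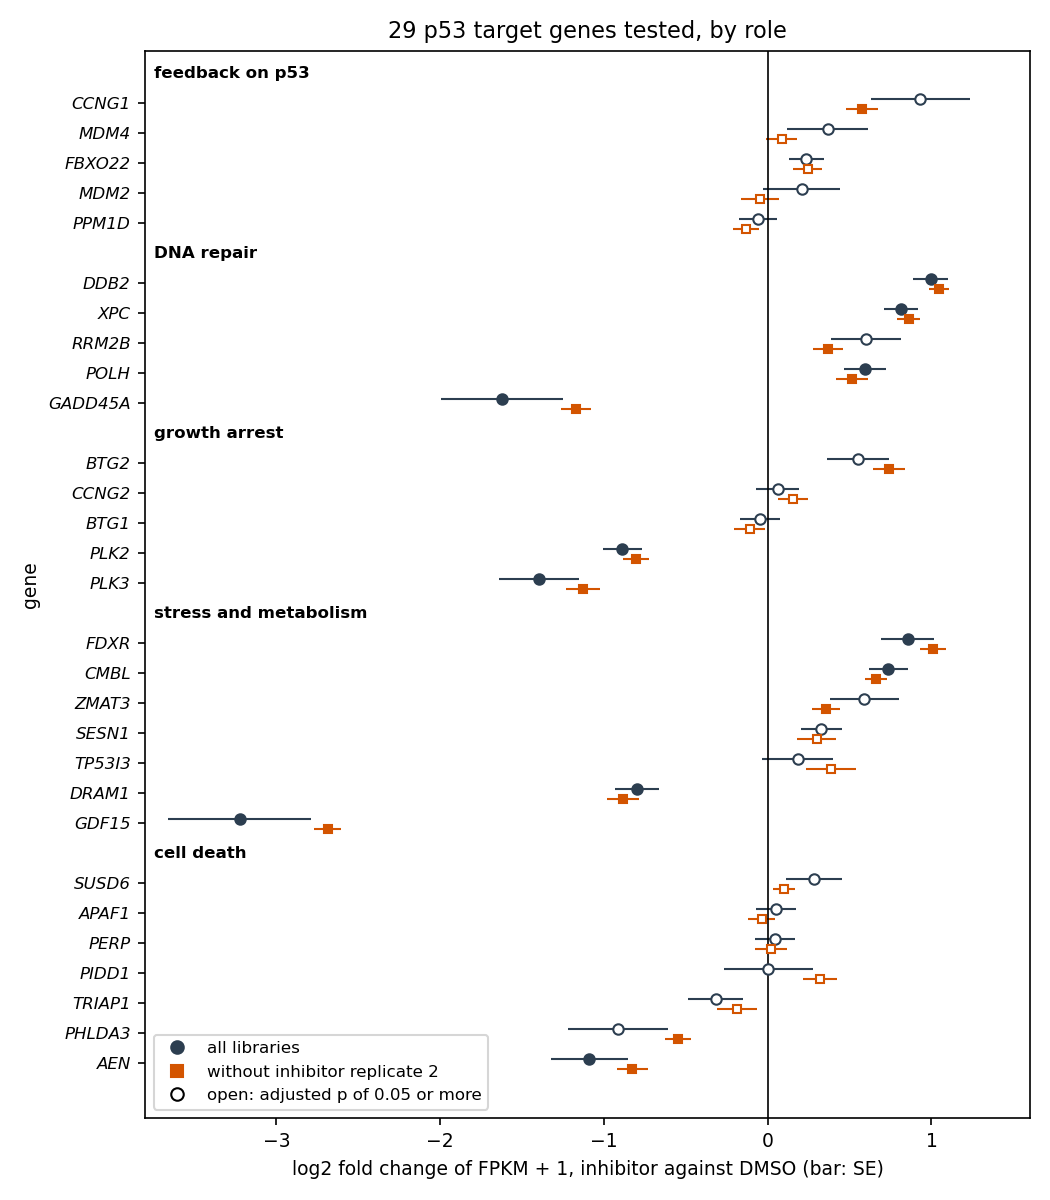
Log2 fold change of FPKM + 1 (inhibitor against DMSO) for the 29 members tested, by role, with standard errors as bars; circles use all libraries, squares leave out inhibitor replicate 2, and filled symbols passed an adjusted p of 0.05. Repair genes other than GADD45A lie to the right, GDF15 lies farthest left at −3.22, and bars are shorter for the squares in most rows.

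Related members were also compared within each library, as the difference of their log2(FPKM + 1) values, in 4 pairs. The CCNG1 to CCNG2 difference was 2.63 ± 0.19 in DMSO and 3.50 ± 0.78 with the inhibitor (SD, n = 3 each), and every inhibitor library exceeded every DMSO library (exact permutation p = 0.10, the smallest that 3 against 3 allows, or 0.20 adjusted over the 4 pairs). The groups differed by 0.87 with all libraries and by 0.42 without inhibitor replicate 2. The BTG1 to BTG2 difference was 1.08 ± 0.10 and 0.48 ± 0.44, with replicate 2 at 0.99 inside the DMSO range. The PLK2 to PLK3 difference was −0.50 ± 0.14 and 0.01 ± 0.39, and inhibitor replicate 3 at −0.39 lay inside the DMSO range. The MDM2 to MDM4 difference was −0.08 ± 0.10 and −0.24 ± 0.06. The last 3 had an exact permutation p of 0.20 each, also after adjustment, and no pair could reach 0.05 in this design.

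Stress and metabolic members went both ways, 2 higher and 2 lower of 7 tested. That is 57.1%, where 17.2% of all genes were called, and 71.4% against 40.6% without inhibitor replicate 2. GDF15 (ENSG00000130513, chromosome 19, 18374731 to 18389176), a secreted stress cytokine driven by p53 and by the integrated stress response, gave 168, 149 and 176 FPKM under DMSO, against 24.2, 7.375 and 25.1 FPKM under the inhibitor. Every inhibitor library was far below DMSO and replicate 2 was the lowest (log2 fold change −3.22, SE 0.44, limma adjusted p = 0.00728; −2.69 without it). A microRNA gene, MIR3189, lies within GDF15 on the same strand and had a log2 fold change of −2.19 (limma adjusted p = 0.00580). Its values may hold reads of the GDF15 transcript, so they are not a separate result. By fold change GDF15 ranked 6 from the lowest of the 13578 genes tested. DRAM1 (ENSG00000136048, chromosome 12, 101877351 to 102012130), a lysosomal membrane protein of autophagy, had DMSO values of 18.1, 17.6 and 15.1 FPKM and inhibitor values of 9.09, 10.6 and 8.29 FPKM. It was 1.81-fold lower (log2 fold change −0.80, SE 0.13, limma adjusted p = 0.0133), and the call was lost without DMSO replicates 1 and 2 (adjusted p = 0.0770 and 0.0731).

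FDXR (ENSG00000161513, chromosome 17, 74862497 to 74873031), the mitochondrial ferredoxin reductase, was measured at 5.47, 5.20 and 5.86 FPKM in the control libraries and at 11.5, 8.47 and 12.7 FPKM in the treated ones. All inhibitor values were higher, replicate 2 least so (log2 fold change 0.85, SE 0.16, limma adjusted p = 0.0182; 1.01 without it). CMBL (ENSG00000164237, chromosome 5, 10275875 to 10308026), a cytosolic hydrolase, measured 34.1, 34.4 and 32.2 FPKM across the DMSO libraries and 55.9, 63.0 and 51.4 FPKM across the inhibitor libraries. The rise was similar in each inhibitor library (log2 fold change 0.74, SE 0.12, limma adjusted p = 0.0120). FDXR lost its call without DMSO replicates 1, 2 and 3 and inhibitor replicate 1 (adjusted p = 0.0869, 0.0865, 0.0707 and 0.0616), and CMBL without DMSO replicates 1, 2 and 3 (adjusted p = 0.0711, 0.0669 and 0.0643, limma).

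SESN1, sestrin 1, which restrains mTORC1, gave 2.185, 1.63 and 1.74 FPKM under DMSO, against 2.53, 2.70 and 2.47 FPKM under the inhibitor. The groups did not overlap but SESN1 was not called (log2 fold change 0.33, SE 0.12, limma adjusted p = 0.119). ZMAT3, an RNA-binding regulator of splicing, had DMSO values of 3.37, 3.28 and 3.16 FPKM and inhibitor values of 4.73, 7.89 and 4.21 FPKM. It was called only without inhibitor replicate 2 (0.36, limma adjusted p = 0.0192, against 0.59 and 0.101 with it). TP53I3, a quinone oxidoreductase, had overlapping groups, 2.93 ± 0.59 FPKM for DMSO and 3.53 ± 1.10 FPKM for the inhibitor (SD, n = 3 each). Its log2 fold change was 0.18, or 0.38 without inhibitor replicate 2, and it was called in neither fit.

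Among cell death members 1 of 7 tested was called, 14.3%, close to the 17.2% of all genes tested. AEN (ENSG00000181026, chromosome 15, 88621296 to 88632282), a nuclease that aids apoptosis, was measured at 13.2, 11.8 and 14.4 FPKM in the control libraries and at 7.015, 3.61 and 6.89 FPKM in the treated ones. It fell in every inhibitor library (log2 fold change −1.09, SE 0.23, limma adjusted p = 0.0263; −0.83 without replicate 2), with the call lost without DMSO replicates 1, 2 and 3 (adjusted p = 0.102, 0.0854 and 0.104). PHLDA3, a repressor of AKT, measured 21.3, 21.4 and 23.2 FPKM across the DMSO libraries and 13.8, 6.33 and 15.6 FPKM across the inhibitor libraries. All inhibitor values were below DMSO, yet it was called only without replicate 2 (−0.55, limma adjusted p = 0.00400, against −0.91 and 0.0871 with it).

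The other 5 tested, TRIAP1, SUSD6, PERP, PIDD1 and APAF1, had log2 fold changes of −0.32 to 0.28 (−0.19 to 0.32 without inhibitor replicate 2) and were not called by limma with or without inhibitor replicate 2. PERP, a junction protein that also promotes death, had the highest level of them, 55.7 ± 1.68 FPKM for DMSO against 57.7 ± 6.36 FPKM for the inhibitor (SD, n = 3 each). APAF1, the scaffold of the apoptosome, had 4.23 ± 0.28 and 4.43 ± 0.59 FPKM. PIDD1 overlaps the abundant ribosomal gene RPLP2 (179 and 150 FPKM), so its share of reads is uncertain.

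The 6 members that were not tested were at or near the floor. SPATA18 had 0 reads in every library and EDA2R 1 read in all. TP53INP1, a p53 cofactor of autophagy and death, gave 0.113, 0.132 and 0.0119 FPKM under DMSO, against 0.0215, 0.158 and 0.0324 FPKM under the inhibitor, 39 reads in all. TP53I11 had 46 reads, TIGAR, a regulator of sugar breakdown, 106, and ACER2, a ceramidase, 133. ACER2 came closest to the limit, with 1.12 FPKM in inhibitor replicate 1 and 0.514 to 0.603 FPKM in the other 5 libraries.

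**Figure D3:**
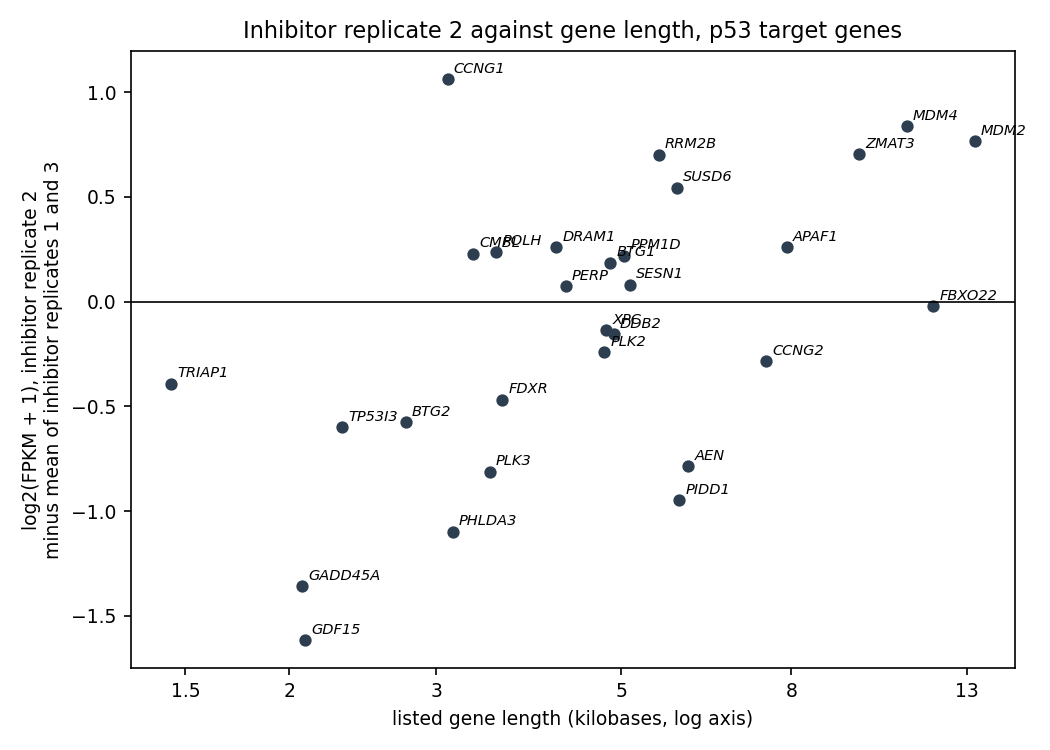
Each point is 1 of the 29 members tested: listed gene length in kilobases (log axis) against log2(FPKM + 1) in inhibitor replicate 2 minus the mean of inhibitor replicates 1 and 3. Short genes such as GDF15 and GADD45A lie below the line at 0 and long genes such as MDM2, MDM4 and ZMAT3 above it. Other members depart from this: FBXO22 (11837 bases), CCNG2 (7471), AEN (6018) and PIDD1 (5869) lie below the line, and CCNG1 (3096) lies highest.

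How far inhibitor replicate 2 departed from its partners varied with gene length among the members. In the plot of its deviation against length, GDF15 (2087 bases) lay at −1.61 and GADD45A (2069 bases) at −1.36. MDM2 (13284 bases) lay at 0.76 and MDM4 (11008 bases) at 0.84, but FBXO22 (11837 bases) at −0.02. Pearson's r with the logarithm of length was 0.55 and Spearman's rho 0.48 across the 29 members, and 0.11 and 0.28 across all 13578 genes tested; genes of 1 library share its depth and preparation. CCNG1, 3096 bases long, had the highest deviation of all members, 1.06. Reads of nuclear coding genes listed under 1500 bases were 1.09% of all nuclear coding reads in replicate 2 and 2.27% to 2.61% in the other 5 libraries. The members' fold changes were recomputed with a smooth trend on length removed from each library. The 11 calls were kept, and BTG2 was added. Calls among all genes tested also went up, from 2339 (975 higher, 1364 lower) to 2826 (1358 higher, 1468 lower). What part length has in the other values of replicate 2 was not tested.

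Of 16 regulators tested from a list of 17, 1 was higher, the checkpoint kinase CHEK2 (log2 fold change 0.67, adjusted p = 0.0144), and 1 lower, the acetyltransferase KAT5 (−0.57, adjusted p = 0.0246, limma). CHEK2 overlaps HSCB on the other strand, which went from 2.76 to 5.34 FPKM (0.75, limma adjusted p = 0.0245). CHEK2 lost its call without DMSO replicates 1, 2 and 3 and inhibitor replicate 1 (adjusted p = 0.0546 to 0.0830), and KAT5 without any library but inhibitor replicate 2 (adjusted p = 0.0573 to 0.113). The kinase ATM was not called (0.24, adjusted p = 0.342; 0.08 without inhibitor replicate 2), nor was CDKN2A, whose ARF product blocks MDM2 (−1.19, adjusted p = 0.0693, or −0.76 and adjusted p = 0.00270 without replicate 2). Without inhibitor replicate 2, 2 regulators were higher and 3 lower. The calls were 12.5% of the regulators with all libraries and 31.2% without that library, where 17.2% and 40.6% of all genes were called.

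Among 23 other p53 targets, all tested, 5 were higher and 4 lower, 39.1% where 17.2% of all genes were called. Without inhibitor replicate 2, 6 were higher and 6 lower, 52.2% where 40.6% of all genes were called. CDKN1A, the p21 inhibitor of cyclin-dependent kinases, was measured at 64.9, 59.0 and 65.6 FPKM in the control libraries and at 58.5, 30.6 and 60.5 FPKM in the treated ones. Replicate 1 lay just below the DMSO range and replicate 2 far below it, and CDKN1A was not called (log2 fold change −0.40, limma adjusted p = 0.334; −0.08 without it). The death genes BAX (−0.38, adjusted p = 0.484) and BBC3 (−0.52, adjusted p = 0.327) were likewise not called, and without replicate 2 their log2 fold changes were 0.05 and −0.10.

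Called lower in that list were PMAIP1, which encodes the death protein NOXA (−1.11), the death receptors FAS (−0.88) and TNFRSF10B (−0.78), and BLOC1S2 (−0.56). Called higher were the noncoding RNA PURPL (2.11), the growth factor KITLG (1.03), the decoy receptor TNFRSF10C (0.90), the carboxylesterase CES2 (0.84) and the repressor E2F7 (0.69). The limma adjusted p of these 9 genes ran from 0.00493 for PURPL to 0.0459 for TNFRSF10B. PMAIP1, FAS, PURPL and CES2 were called without each library in turn. KITLG and TNFRSF10C lost their calls without DMSO replicates 1, 2 and 3, E2F7 also without inhibitor replicate 1, and TNFRSF10B and BLOC1S2 without any library but inhibitor replicate 2 (adjusted p = 0.0517 to 0.157 over these fits, limma).

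**Figure D4:**
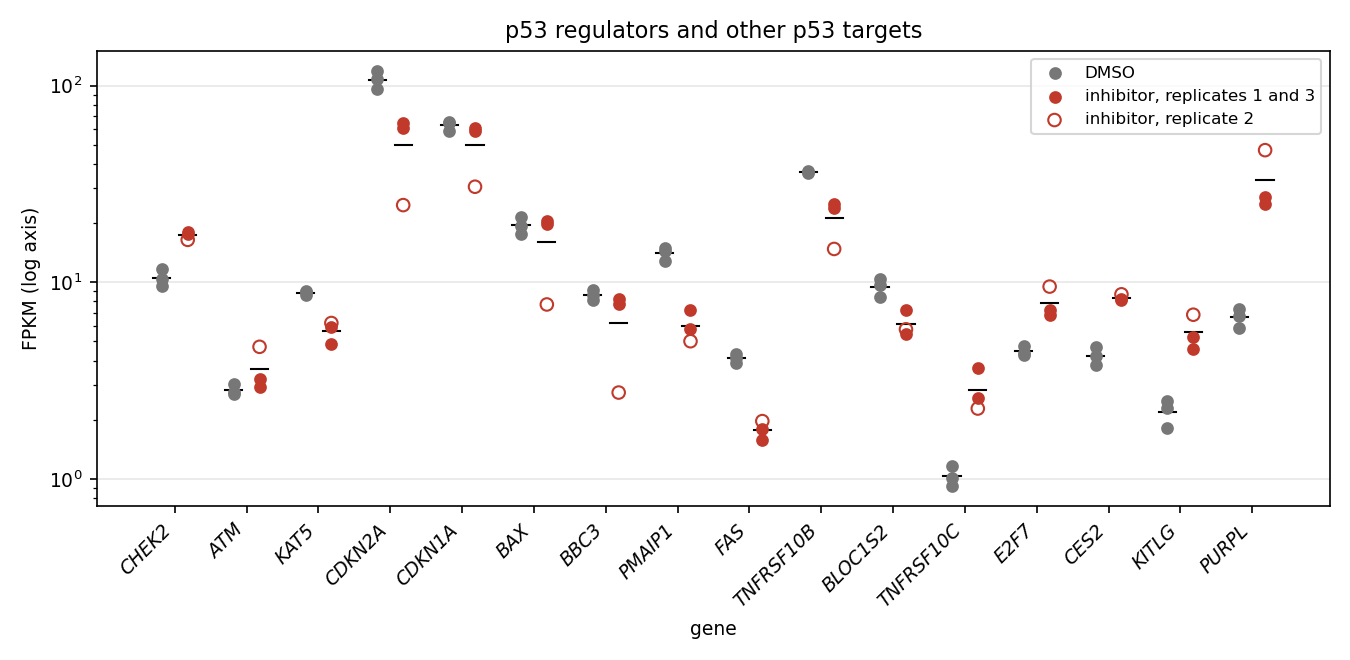
FPKM (log axis) of 4 p53 regulators and 12 other p53 targets in each library, drawn as in the plot of the 11 called members. CHEK2, PURPL, KITLG, CES2, E2F7 and TNFRSF10C lie higher in all 3 inhibitor libraries, whereas CDKN1A, BAX and BBC3 leave the DMSO range mainly in replicate 2.

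GDF15 and GADD45A are known to answer to the integrated stress response as well as to p53. Of 10 genes of that response, 2 were lower, ATF3 (−1.22, adjusted p = 0.0110) and TRIB3 (−0.72, adjusted p = 0.0323), and 1 higher, PSAT1 (0.46, adjusted p = 0.0394, limma). ATF3 lost its call without DMSO replicates 1, 2 and 3 (adjusted p = 0.0555 to 0.0599), TRIB3 also without inhibitor replicate 1 (0.0661 to 0.134), and PSAT1 without any library but inhibitor replicate 2 (0.0618 to 0.155). The median log2 fold change of the 10 genes was −0.37, or −0.25 without inhibitor replicate 2, where that of all genes tested was −0.055 and −0.051. Without that library 2 were higher and 4 lower. The calls were 30.0% of the 10 genes and 60.0% without that library, where 17.2% and 40.6% of all genes were called. The part of that response in the members' values was not tested.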

How the data were processed

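RNA sequencing of 6 libraries, 3 with DMSO and 3 with the PRMT5 inhibitor, was used as deposited. The authors deposited FPKM values, 1 column for each library, with a length for each of 58735 genes. Per the labels' protocols the kit was directional; per the submitters' processing notes the reads were placed on hg38. The sources used here name no aligner, counter, strand setting or annotation release. Multiplied by length, 100% of FPKM values above 0 came within 0.01 of whole reads after division by a factor of the library, which gave 14087260 to 15724750 reads per library. Replicate pairs differed by more than sampling noise (chi-square per degree of freedom 2.475 to 98.73), so each library counted once.

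Genes that reached 1 FPKM in 3 or more libraries (13578) were tested on log2(FPKM + 1) with limma 3.58.1 in R 4.3.3 (trended prior, groups only, two-sided p), adjusted by Benjamini-Hochberg over those genes, threshold 0.05; this scale understates changes of low genes. Pairs of related members were compared with exact permutation tests (scipy 1.17.1). The members, role groups, other lists and tests were chosen with earlier results of these data known; 1 gene of the regulator list is not reported here. By the rule for naming genes, all 35 members are accounted for, with values in every library for called members and a fixed set of others, and the other lists are represented by fixed genes and every called one. Alternatives were pseudocounts of 0.1 and 0.5, no filter or 5 FPKM, TPM and quantile scaling, a robust or untrended limma prior, a replicate block, removal of a loess trend on length (span 0.3), each library left out, and limma-voom on recovered reads; limma-voom without inhibitor replicate 2 was added after seeing the data. Promoter letters come from RefSeq (GRCh38.p14); a motif was counted only with its C and G in place. Python 3.11.15, numpy 2.4.6, pandas 2.3.3 and matplotlib 3.10.9 were used.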

Additional observations from a re-analysis of the deposited data

How the results depend on the processing

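Leaving out 1 library moved the counts most. The range was 478 to 5513 called genes in all, 1 to 7 members lower, 2 to 9 members higher, 4 to 12 other p53 targets and 0 to 5 p53 regulators; the highest of each came without inhibitor replicate 2. By limma-voom, that library left out, 6618 genes, 13 members higher, 14 other targets and 9 regulators were called. All 11 member calls kept their direction in every fit. Without a filter 1533 genes and 5 other targets were called, POLH, GADD45A and AEN lost their calls, and at 5 FPKM 1505 genes were called. Limma-voom with all libraries called 4 regulators, and 1 was called with the length trend removed. With the replicate block, 1478 genes and 1 regulator were called and POLH was not (adjusted p = 0.0528, limma). The replicate numbers were not taken as pairing the libraries. The deviations of same-numbered libraries from their group means correlated at −0.02, 0.16 and 0.25. DMSO replicates 2 and 3 correlated best with their own number and DMSO replicate 1 did not, so these values do not settle whether the libraries are paired.

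The sign changed for 7 members with log2 fold changes of −0.06 to 0.21, none of them called: PPM1D with quantile scaling (0.0204) and the length trend removed (0.0078), BTG1 likewise (0.0874 and 0.0219), and PIDD1 at pseudocounts of 0.1 and 0.5 (−0.0143 and −0.0042), with TPM (−0.0389) and with limma-voom (−0.0050). With 1 library left out the ranges were −0.0481 to 0.39 for MDM2, −0.13 to 0.0047 for PPM1D, −0.11 to 0.0334 for BTG1, −0.0164 to 0.15 for CCNG2, −0.0189 to 0.14 for PERP, −0.19 to 0.32 for PIDD1 and −0.0371 to 0.11 for APAF1. By limma-voom, inhibitor replicate 2 left out, MDM2 was at −0.0583 and APAF1 at −0.0467. The log2 ratios of paralog pairs kept their sign at pseudocounts of 0.1 and 0.5 and with each library left out: −0.21 to −0.11 (MDM2 to MDM4), 0.42 to 1.10 (CCNG1 to CCNG2), −0.85 to −0.45 (BTG1 to BTG2) and 0.32 to 0.71 (PLK2 to PLK3) with 1 library left out. At this depth the 6 members not tested had 0 to 133 reads in all, too few to compare. The cause of these shifts was not tested.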
